A study of Mus musculus with 8 samples.

Results

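Primitive endoderm genes were followed as a set of 10, namely Gata4, Gata6, Sox17, Sox7, Foxa2, Dab2, Cubn, Amn, Afp and Lama1. They were taken by gene symbol from the deposited expression values, which hold 22499 gene names, and all 10 were found. Expression was measured by paired-end poly(A) RNA sequencing in 8 libraries of 5 mouse pluripotent lines. The ESC line R1 was compared with 4 secondary iPSC lines, each a single line, that were made from somatic cells of all-iPSC mice carrying doxycycline-inducible Oct4, Sox2, c-Myc and Klf4. The mesoderm-derived lines were 16-6, reprogrammed from hematopoietic cells, and 32, reprogrammed from adipocyte progenitors, whereas epidermal cells (ectoderm) gave S8 and stomach lining cells (endoderm) gave T2. R1, 16-6 and 32 had 2 libraries each, and S8 and T2 had 1 each. All lines were grown with serum and LIF on mitomycin C-treated mouse embryonic fibroblasts, a feeder layer whose RNA can be part of a bulk sample. The labels give the tissue as embryo, whereas the methods describe cell pellets of the lines. The lowest line mean of Pou5f1 (Oct4), a defining pluripotency gene, was 489 FPKM, in 16-6. The methods describe the replicates as biological without saying whether they were separate cultures, and p-values measure only the spread between these libraries.

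Primitive endoderm is the extraembryonic sister lineage of the epiblast in the inner cell mass of the blastocyst, and cultures of ESCs and iPSCs can give rise to cells of this type when they differentiate. GATA factors act at the top of its programme, SOX and FOX factors follow, and its visceral and parietal derivatives take up nutrients by endocytosis and lay down basement membrane. These genes therefore serve as markers of spontaneous extraembryonic differentiation in pluripotent cultures.

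The files give Dab2 with its gene span on chromosome 15, from 6249789 to 6390709 in mm9, plus strand, and Lama1 on chromosome 17, from 68046605 to 68171985, plus strand. These members carried most of the signal described here. Promoters in RefSeq on GRCm38.p6 matched 5 of the 10 genes (Afp, Amn, Cubn, Dab2 and Foxa2) with 8 promoters, each taken as the 250 bases before a start site. The promoters of Dab2 are shown because it was the member with values above 1 FPKM in every library that differed most from R1, and because it starts at 2 sites. Capitals mark a GATA word, which on either strand could be spelled AGATAA or end in G as in AGATAG, or begin with T as in TGATAA or in the spelling TGATAG.
Dab2, chr15:6299539-6299788, plus strand, GRCm38.p6: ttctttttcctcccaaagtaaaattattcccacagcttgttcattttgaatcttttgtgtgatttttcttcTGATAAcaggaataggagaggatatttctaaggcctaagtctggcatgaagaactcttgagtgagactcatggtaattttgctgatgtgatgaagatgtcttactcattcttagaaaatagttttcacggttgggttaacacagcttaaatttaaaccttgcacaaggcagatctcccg
Dab2, chr15:6386498-6386747, plus strand, GRCm38.p6: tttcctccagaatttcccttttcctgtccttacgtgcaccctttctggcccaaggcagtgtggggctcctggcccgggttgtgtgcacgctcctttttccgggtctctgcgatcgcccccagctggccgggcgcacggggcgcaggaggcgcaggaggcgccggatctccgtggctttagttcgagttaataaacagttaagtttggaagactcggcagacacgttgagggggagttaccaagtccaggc
A GATA word was present in 2 of the 8 promoters, 1 of Dab2 and 1 of Foxa2, beside 26.5% of 32851 promoters of the same length. The FOX word TGTTTAC was in 0 of the 8, beside 3.17% of those promoters. The presence of these letters is a description of the sequence only.

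Most members were low in all lines. Values are in FPKM, fragments per kilobase of transcript normalised to library size, on the deposited scale divided by 1 constant for all libraries. Of the 80 member values, 55 were below 1 FPKM, and 8 of the 10 genes stayed below 2 FPKM in every library. Of the 10 genes, 4 stayed below 1 FPKM in every library, which is near the 40.1% of all entries that did so. For the counts of 55 and 8 no share over all entries was taken. The genes tested had a median of 12.7 FPKM. By mean, 37.8% of them were lower than Dab2 and 39.9% lower than Lama1. For the other 8 members this share was 6.45% (Amn) or less. The confidence limits imply the number of fragments behind a value. Summed over all entries they came to about 15500000 to 16700000 per library, and 71 of the 80 member values gave a whole number within 0.05. The read table of the study lists far more reads and a smaller mapped share for the S8 and T2 libraries than for the others, which the implied fragments do not show. In comparisons with S8 or T2, the line and this difference between libraries cannot be told apart. Only Dab2 and Lama1 had more than 100 fragments in any library, so the other 8 genes carry wider counting error.

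**Figure D1:**
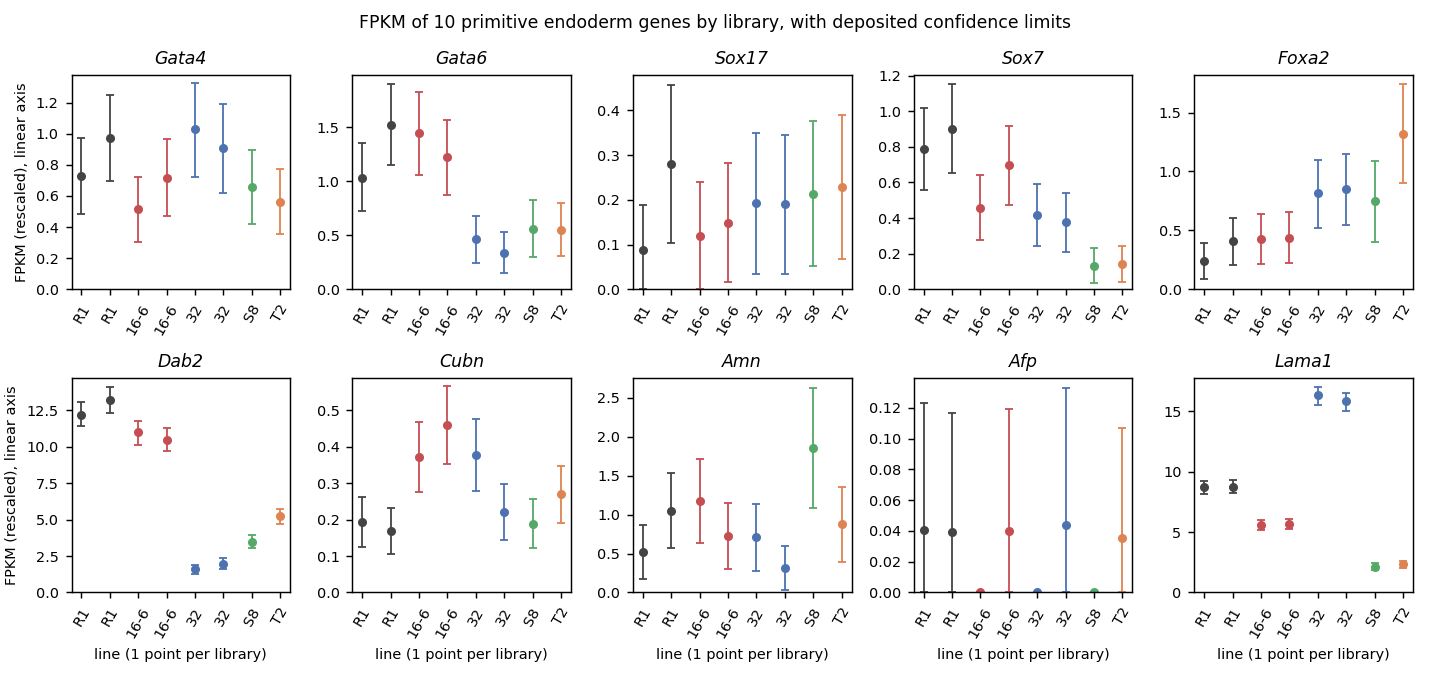
FPKM (linear axes, 1 panel per gene) of the 10 genes in each of the 8 libraries, coloured by line, with the deposited confidence limits as bars. Dab2 and Lama1 reach 13.2 and 16.3 FPKM, and the other 8 genes stay below 2 FPKM.

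**Figure D2:**
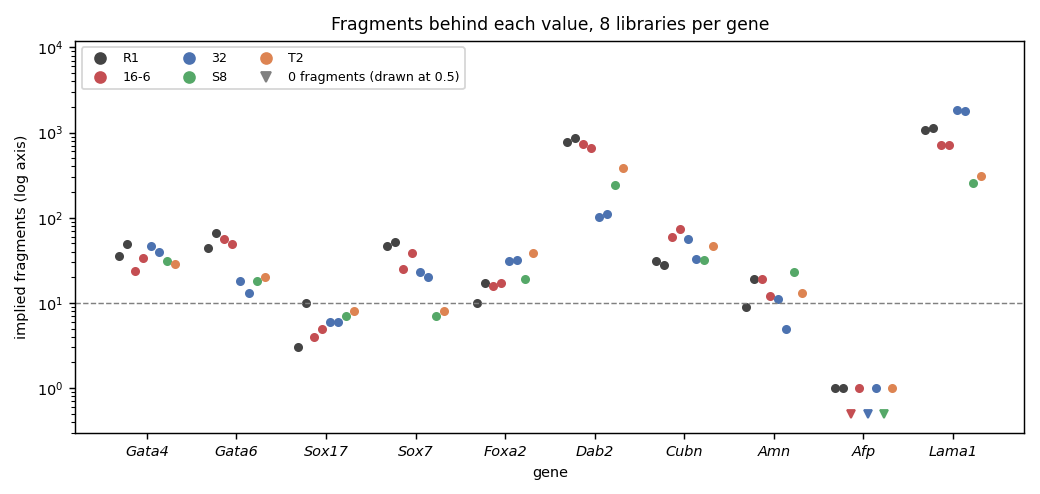
Number of fragments implied by the confidence limits (log axis) for each gene in each library, with values of 0 drawn as triangles at 0.5 and a dashed line at 10 fragments. Afp has 1 fragment at most, Sox17 has 3 to 10, and Lama1 has 258 to 1837.

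Among the transcription factors, Gata6, which with Gata4 heads the primitive endoderm programme, was at 1.03 and 1.52 FPKM in R1 and at 1.45 and 1.22 FPKM in 16-6. It was at 0.463 and 0.339 FPKM in 32, at 0.562 FPKM in S8 and at 0.55 FPKM in T2. R1 and 16-6 overlapped each other, and neither overlapped 32, S8 or T2. On the log2(FPKM + 1) scale, which understates changes of low genes, the difference from R1 was -0.70 in 32 (SE 0.13). It was -0.54 in S8 (SE 0.16) and -0.55 in T2 (SE 0.16). None of these reached the 2-fold change that was also required of a call. They are given without a p because Gata6 passed the filter of 1 FPKM only through the R1 and 16-6 libraries. 16-6 differed from R1 by 0.04 (limma adjusted p = 0.819). Behind the values were 44 and 66 fragments in R1, 18 and 13 in 32, 18 in S8 and 20 in T2.

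Gata4 was between 0.515 FPKM in the first 16-6 library and 1.03 FPKM in the first 32 library, with a median of 0.723 FPKM. No comparison of Gata4 between lines passed an adjusted p of 0.05 in limma. Its difference from R1 ran from -0.24 in T2 (95% interval -0.59 to 0.11) to 0.09 in 32 (95% interval -0.19 to 0.37), and the ranges of R1 and 32 overlapped.

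Foxa2, a forkhead factor of visceral and definitive endoderm, was lowest in R1, at 0.238 and 0.408 FPKM. It was at 0.423 and 0.439 FPKM in 16-6, 0.813 and 0.848 in 32, 0.747 in S8 and 1.32 in T2. Behind these values were 10 and 17 fragments in R1, 16 and 17 in 16-6, 31 and 32 in 32, 19 in S8 and 39 in T2, so that the fragment counts of R1 and 16-6 overlapped. The difference from R1 was 0.12 in 16-6 (limma adjusted p = 0.323), 0.47 in 32 (adjusted p = 0.00823) and 0.40 in S8 (adjusted p = 0.0247), none of them 2-fold. In T2 it was 0.81, given without a p because Foxa2 passed the filter of 1 FPKM only through the T2 library. The value of 1 fragment of Foxa2 was 1.49 times the gene's median in S8 and 1.29 times in T2. When every fragment of a gene was given the same FPKM and the pseudocount was 0.1, the difference from R1 was 0.46 in S8 (adjusted p = 0.212), 1.28 in T2 (adjusted p = 0.01) and 1.19 in 32 (adjusted p = 0.00493).

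Sox17 and Sox7, SOX factors of the same lineage, never reached 1 FPKM. Sox17 ranged from 0.0879 to 0.28 FPKM, and both of these extremes were R1 libraries. Sox7 was at 0.789 and 0.901 FPKM in R1, 0.457 and 0.696 in 16-6, 0.418 and 0.375 in 32, 0.133 in S8 and 0.143 in T2. Every iPSC library was below both R1 libraries, with 46 and 52 fragments in R1, 7 in S8 and 8 in T2. With genes kept at 10 fragments or more and a pseudocount of 0.1, Sox7 fell by 2.02 on the log2 scale in S8 (limma adjusted p = 0.000772) and by 1.96 in T2 (limma adjusted p = 0.00133).

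The spread of FPKM per fragment over 7710 genes was wider in S8 and T2 than in the other libraries. Relative to the gene's median, and divided by a common factor for each library, the 5th to 95th percentiles were 0.751 to 1.33 in S8 and 0.802 to 1.26 in T2. No bound of the other 6 libraries lay outside 0.917 to 1.08. That factor was 1 in S8 and 0.939 in T2, and the values of single members are not divided by it. Besides Foxa2, this spread touches Amn, at 1.29 times its median in S8, and Gata6, at 1.22 times in S8. The part of this spread in the differences between lines was tested only by the fit with the same FPKM per fragment. In that fit, with a pseudocount of 0.1, Gata6 differed from R1 by -1.47 in 32, -1.37 in S8 and -1.32 in T2. The Gata6 differences given above used a pseudocount of 1 and are not a like-for-like comparison. With the deposited FPKM, the filter on fragments used for Sox7 and the same pseudocount of 0.1, Gata6 differed by -1.45 in 32. It differed by -1.035 in S8 and by -1.061 in T2 under those settings.

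Of the endocytosis genes, Dab2, a clathrin adaptor used as a marker of primitive endoderm and also made by other cell types, differed most. It was at 12.2 and 13.2 FPKM in R1 and at 11 and 10.5 FPKM in 16-6. It was at 1.59 and 1.98 FPKM in 32, at 3.47 FPKM in S8 and at 5.22 FPKM in T2. R1 and 16-6 were high, 32 was lowest, S8 and T2 lay between, and no line overlapped another. Relative to the R1 mean of 12.7 ± 0.68 FPKM (SD, n = 2), 16-6 was at 84.4%, 32 at 14%, S8 at 27.3% and T2 at 41.1%. Dab2 fell by 2.30 in 32 (SE 0.089, limma adjusted p = 6.6e-05), by 1.62 in S8 (SE 0.11, limma adjusted p = 0.000254) and by 1.14 in T2 (SE 0.11, limma adjusted p = 0.00111). The difference of -0.22 in 16-6 did not pass (SE 0.089, limma adjusted p = 0.0856). S8 and T2 have 1 library each and were assumed to vary like the other lines.

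Cubn and Amn encode cubilin and amnionless, which together form an endocytic receptor of visceral endoderm. Cubn stayed between 0.168 and 0.459 FPKM, and the 16-6 libraries, at 0.372 and 0.459, were above both R1 libraries, at 0.193 and 0.168. So were 32, at 0.376 and 0.221, and T2, at 0.269, whereas S8 was at 0.189, and 16-6 and 32 overlapped. With the fragment filter and the pseudocount of 0.1, 16-6 differed from R1 by 0.87 (limma adjusted p = 0.028), short of 2-fold. Amn was at 0.522 and 1.05 FPKM in R1, 1.17 and 0.729 in 16-6, 0.71 and 0.315 in 32, 1.86 in S8 and 0.876 in T2. The R1 libraries overlapped those of 16-6, 32 and T2, and the fragments numbered between 5 and 23. S8 exceeded 32 by 0.93 (SE 0.27, limma adjusted p = 0.0314), and no other comparison of Amn passed that threshold. Without the first 32 library the difference was 1.12, beyond 2-fold. With the fragment filter and a pseudocount of 0.1 it was 1.75 and was called. With the same FPKM for every fragment of the gene and a pseudocount of 0.1 it was 1.34 and did not pass (SE 0.52, limma adjusted p = 0.0743). The fragment filter and the same FPKM per fragment were settings chosen after seeing the data.

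Lama1 and Afp are secreted products of the lineage, the laminin alpha 1 chain of basement membrane and alpha-fetoprotein. Lama1 was at 8.71 and 8.76 FPKM in R1, 5.61 and 5.64 in 16-6, 16.3 and 15.8 in 32, 2.13 in S8 and 2.32 in T2. The order of the lines was 32, R1, 16-6, T2 and S8. T2 and S8, neighbours in that order, differed by 0.08 with a 95% half-width of 0.18 (limma adjusted p = 0.406), and the other neighbours did not overlap. Lama1 fell by 1.64 in S8 (SE 0.062, limma adjusted p = 8.54e-05) and by 1.55 in T2 (SE 0.062, limma adjusted p = 0.000166) against R1. The difference was 0.80 in 32 (limma adjusted p = 0.000253) and -0.56 in 16-6 (limma adjusted p = 0.000899), both under 2-fold. As a share of the FPKM of Lamc1, the gamma chain that pairs with it, Lama1 was at 8.02% ± 0.038 in R1 (SD, n = 2), 6.43% ± 0.16 in 16-6 and 15.7% ± 0.75 in 32, and at 3.62% in S8 and 3.22% in T2. Afp, a product of visceral endoderm, had 1 fragment in 5 libraries and 0 in 3. In the 3 libraries at 0, the 95% interval of the count reached 3.69 fragments, and a floor set at 3 fragments equalled 0.119 FPKM. A single fragment stood for 0.0357 to 0.0442 FPKM in the others.

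**Figure D3:**
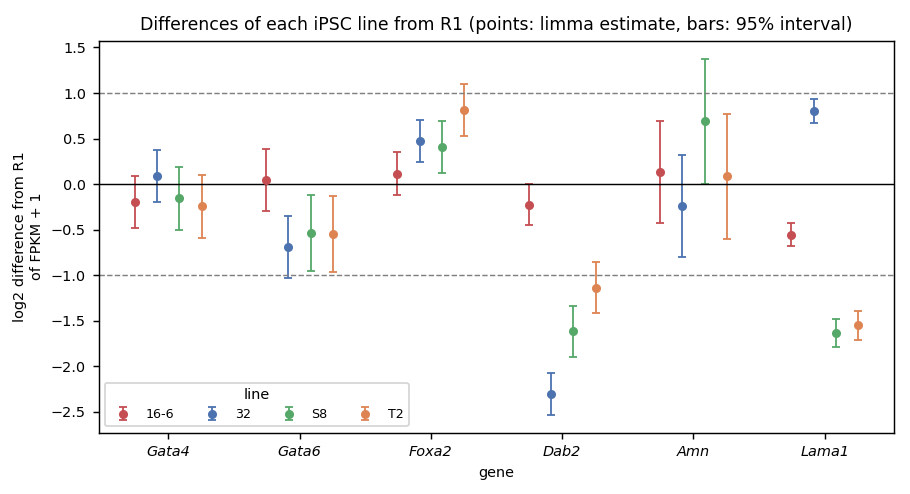
Difference from R1 in log2(FPKM + 1) for the 6 genes that passed the filter, for each iPSC line, with 95% intervals from limma as bars and dashed lines at a 2-fold change. Dab2 in 32, S8 and T2 and Lama1 in S8 and T2 lie beyond the dashed line, and Lama1 in 32 is at 0.80.

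Only 6 of the 10 genes could be tested on this scale, since they alone reached 1 FPKM in a library. Gata4 did so only through the first 32 library and Foxa2 only through T2. Gata6 did so only through the R1 and 16-6 libraries, and Amn only through the second R1, first 16-6 and S8 libraries. Against R1, limma called 0 of the 6 in 16-6, beside 7.11% of all 13693 genes tested, and 1 of them (Lama1, at -0.56) had an unadjusted p under 0.05. It called 1 in 32 (Dab2, beside 9.77% of all genes), 2 in S8 (Dab2 and Lama1, beside 16.7%) and 2 in T2 (Dab2 and Lama1 again, beside 10.5%). Between iPSC lines, 2 were called in 32 against 16-6 (10.3% of all genes), 2 in S8 against 16-6 (17.3%), 1 in S8 against 32 (11.8%) and 2 in T2 against 32 (7.43%). In T2 against 16-6 limma called 0 (8.07% of all genes), with Lama1 at -0.9965 and Dab2 at -0.92 just short of 2-fold. There 4 had an unadjusted and also an adjusted p under 0.05, namely Lama1, Dab2, Gata6 and Foxa2. For Gata6 and Foxa2 this is no support, because a line in this comparison let each of them through the filter. In T2 against S8 limma called 0 (2.75% of all genes), with Dab2 at 0.48 at an adjusted p under 0.05. An unadjusted p under 0.05 was found for 2, Dab2 and Foxa2, and Foxa2 passed the filter only through T2. These comparisons share samples and are not independent of each other.

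With genes kept at 10 fragments or more and a pseudocount of 0.1, which tested 9 of the genes, the count against R1 was 0 in 16-6 (14.2% of 15017 genes), 3 in 32 (18.8%), 5 in S8 (24.5%) and 5 in T2 (17.5%). This setting was chosen after seeing the data. Gata6 then differed from R1 by -1.45 in 32 (adjusted p = 0.00169), -1.04 in S8 (adjusted p = 0.0177) and -1.06 in T2 (adjusted p = 0.0189).

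Genes with the most similar pattern to Dab2 over the 8 libraries, by Pearson r of log2(FPKM + 1) among 5764 genes that ranged over at least 1, were Igf2 (r = 0.997), Thbd (r = 0.996) and Tmem176a (r = 0.996). For Lama1 they were Sh2d4b (r = 0.991), Kit (r = 0.990) and Ulk1 (r = 0.990), and for Amn they were Rnh1 (r = 0.912), 2310016M24Rik (r = 0.907) and Ptgis (r = 0.887). Among the 6 tested members themselves, r ran from -0.77 between Gata6 and Foxa2 to 0.93 between Gata6 and Dab2, with -0.22 between Gata4 and Gata6 and -0.26 between Dab2 and Lama1. The points are libraries that share lines and replicates, so these values describe the pattern only.

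Of all genes tested, 3.58% were called higher and 3.54% lower than R1 in 16-6, 1.54% higher and 8.23% lower in 32, 6.93% higher and 9.74% lower in S8, and 3.95% higher and 6.54% lower in T2. The counts for the lists that follow are of such calls, which need 2-fold. Among 7 other endoderm regulators and receptors, 3 passed the filter. Lrp2 was called higher in all 4 iPSC lines, and Pdgfra was called lower in 32, S8 and T2. Pdgfra, a receptor of primitive endoderm that fibroblasts also make, was at 9.55 FPKM in R1, 9.02 in 16-6, 0.379 in 32, 1.76 in S8 and 2.05 in T2. It fell by 2.94 on the log2 scale in 32, fell by 1.93 in S8 and fell by 1.79 in T2. Lrp2, the megalin receptor that works with cubilin, rose in all iPSC lines, by 1.81 in 16-6, 1.28 in 32, 1.22 in S8 and 1.98 in T2, from 4.81 FPKM in R1.

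Of 13 visceral endoderm genes, 8 passed the filter, and against R1 2 were called lower in 32, 1 was called higher and 1 lower in S8, and 1 was called higher and 2 lower in T2. Lefty1, an inhibitor of Nodal signalling that pluripotent cells also express, rose by 2.38 in S8 and by 2.31 in T2, from 58.8 FPKM in R1. Bmp2 fell by 1.03 in 32, 1.38 in S8 and 1.15 in T2, Rbp4 fell by 1.36 in 32, and Trf (transferrin) fell by 1.14 in T2. Ttr (transthyretin), a typical visceral endoderm product, was listed at 0 in all 8 libraries. The median difference of the 8 genes from R1 was -0.51 in 16-6, -0.19 in 32, -0.23 in S8 and -0.63 in T2, beside -0.03, -0.02, -0.03 and -0.03 over all genes tested.

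All 12 parietal endoderm and basement membrane genes passed the filter. Against R1, 4 were called higher in 16-6, and 7 were called lower in 32, 5 in S8 and 4 in T2, with median differences of 0.66, -1.19, -0.86 and -0.43. Thbd (thrombomodulin) was at 28.4 FPKM in R1, 24.6 in 16-6, 1.29 in 32, 4.97 in S8 and 6.73 in T2. Col4a2, a collagen IV chain, rose by 1.53 in 16-6 and fell by 1.83 in 32, whereas Lama1 differed from R1 by -0.56 in 16-6 and by 0.80 in 32. Plat (tissue plasminogen activator) fell by 2.37 in 32, 1.63 in S8 and 1.12 in T2, and Snai1 rose by 1.11 in 16-6 and fell by 1.76 in 32, 1.28 in S8 and 1.45 in T2. Of 6 genes of definitive endoderm and primitive streak, 5 passed the filter, and T (brachyury) rose by 2.05 in 16-6 and by 2.64 in 32, as did Eomes, by 1.32 and 2.02. Mixl1 rose by 1.15 in 32. Of 8 pluripotency genes, all tested, 2 were called lower than R1 in 16-6, 1 in 32, 4 in S8 and 3 in T2. Tcfcp2l1, a factor of naive pluripotency, was at 55.4 FPKM in R1, 42.2 in 16-6, 96.1 in 32, 8.21 in S8 and 14.3 in T2, and fell by 2.61 in S8 and by 1.88 in T2. Zfp42 (Rex1), a marker of the same state, fell in all 4 iPSC lines, at 542 FPKM in R1, 142 in 16-6, 268 in 32, 119 in S8 and 92.9 in T2. Esrrb fell by 1.04 in 16-6, 1.56 in S8 and 1.73 in T2, and Nanog fell by 1.11 in S8.

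The summed fibroblast markers were below R1 in 32, S8 and T2, as were Dab2, Gata6, Pdgfra and Thbd. In 16-6 the sum was above R1, and Col4a2 rose there too. Dab2, Gata6, Pdgfra and Thbd did not follow it in 16-6, at 84.4%, 104%, 94.5% and 86.5% of R1. Of 14 fibroblast genes, 13 were called lower than R1 in 32, 9 in S8 and 7 in T2, and in 16-6 6 were called higher and 2 lower, with median differences in 32, S8, T2 and 16-6 of -2.93, -1.46, -0.76 and 0.75. Their summed level was 985 to 1016 FPKM in R1, 1831 to 1836 in 16-6, 77.1 to 77.5 in 32, 408 in S8 and 613 in T2, and no marker was at 0 in any line. Dcn (decorin) was at 210 FPKM in R1, 33.1 in 16-6, 0.747 in 32, 11.1 in S8 and 11 in T2. Lum (lumican), Col3a1 and Prrx1 fell by 5.60, fell by 4.91 and fell by 3.98 in 32. Relative to R1 the sum was 183% in 16-6, 7.73% in 32, 40.8% in S8 and 61.3% in T2, and Dab2 was at 84.4%, 14%, 27.3% and 41.1%. The sum is weighted to the most abundant markers, such as Col1a1 at 583 FPKM in 16-6. Single markers in 16-6 ran from 0.136 (Lum) to 5.07 (Postn) times the R1 mean. Lama1 was at 183% in 32, where the fibroblast sum was lowest. The part of fibroblast RNA in the values of Dab2, Gata6, Pdgfra, Thbd and the collagens was not tested, and fewer cells of a type cannot be told apart from less RNA per cell.

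**Figure D4:**
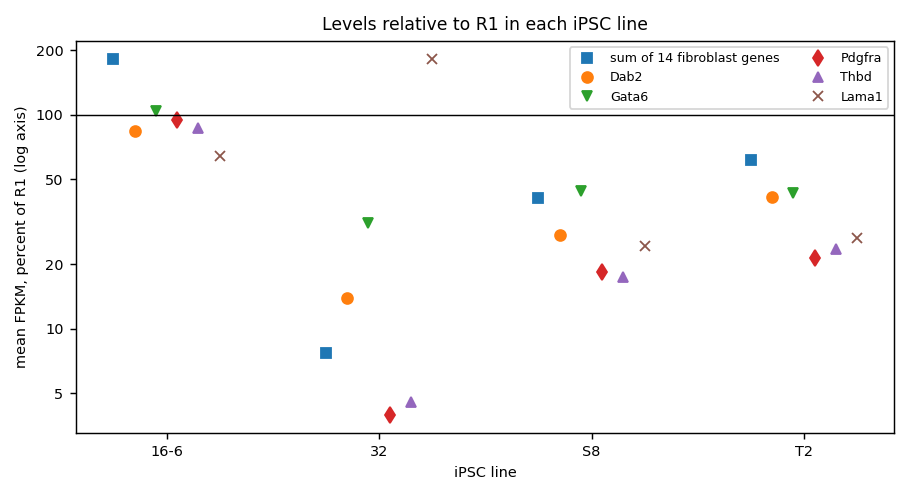
Mean FPKM in each iPSC line as a percentage of the R1 mean (log axis) for the sum of 14 fibroblast genes and for Dab2, Gata6, Pdgfra, Thbd and Lama1, with the black line at the R1 level. In 32 the fibroblast sum is at 7.73%, Dab2 at 14% and Lama1 at 183%.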

How the data were processed

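RNA was measured in 8 libraries of 5 lines, grouped by the labels. Per the labels and the methods, the authors aligned reads to mm9 with TopHat (2.0.4) and estimated FPKM with Cufflinks, given as 2.0.2 in the methods and as 2.0.0 in the submitters' processing notes. Its options are not given in the sources used here. The deposited FPKM values, with confidence limits, were divided by 12725.7, so that the median library total is 1000000. The fragments behind a value were derived from its confidence limits, taken as 2 Poisson standard errors away. Intervals and floors cover counting error only. Lines were compared with limma 3.58.1 (R 4.3.3, trend) on log2(FPKM + 1) for genes with at least 1 FPKM in 1 library, with 5 groups and 3 residual degrees of freedom. A call needed a Benjamini-Hochberg adjusted p below 0.05 over all 13693 genes and a 2-fold change. An exact test of 2 against 2 libraries cannot go below p = 0.33. Replicates differed by more than sampling noise (1.39 to 1.69 times the Poisson variance) and were kept apart. The script was tested on simulated data. Members and lists were chosen with earlier results of these data known. All members are described. From each other list, up to 4 genes called against R1 with the largest differences are named, with Lamc1, Ttr and Pou5f1 as additions made after their values were seen. Alternatives covered the pseudocount, filter, scaling, trend, left-out libraries and FPKM per fragment.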

Additional observations from a re-analysis of the deposited data

Results flagged for a closer look

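Differences between iPSC lines in their departure from R1 were tested directly for the 6 members that passed the filter, and 7 of them passed the threshold and 2-fold. Dab2 differed by -2.08 between 32 and 16-6 (SE 0.089, limma adjusted p = 6.73e-05), by -1.39 between S8 and 16-6 (SE 0.11, limma adjusted p = 0.000375) and by 1.16 between T2 and 32 (SE 0.11, limma adjusted p = 0.00138). Lama1 differed by 1.36 between 32 and 16-6 (SE 0.050, limma adjusted p = 4.06e-05) and by -1.08 between S8 and 16-6 (SE 0.062, limma adjusted p = 0.000162). It differed by -2.44 between S8 and 32 (SE 0.062, limma adjusted p = 6.29e-05) and by -2.36 between T2 and 32 (SE 0.062, limma adjusted p = 7.04e-05). Both libraries of each replicated line lay on the same side in these comparisons.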

How the results depend on the processing

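Over 856 member differences recomputed under other settings, 817 kept their side of the threshold, 37 newly passed it, 2 no longer did, and 0 of those called under either setting changed sign. Under quantile normalization Lama1 in S8 against 16-6 (-0.88) and Dab2 in T2 against 32 (0.89) fell short of 2-fold, which left 1 member called in each of these comparisons. With pseudocount 0.1 the members called were 3 in 32 against R1, 2 in S8 against 32, 4 in S8 against R1, 4 in T2 against 16-6 and 4 in T2 against R1, and the genes called were 1690 in 16-6 against R1, 2258 in 32 against R1, 2466 in S8 against 32, 1752 in T2 against 16-6, 1872 in T2 against 32, 2198 in T2 against R1 and 794 in T2 against S8, against 974, 1338, 1621, 1105, 1017, 1437 and 376 with pseudocount 1. In S8 against R1, 3172 genes were called with pseudocount 0.1, against 2283 with pseudocount 1. This setting kept the filter of 1 FPKM, which Gata4, Gata6, Foxa2 and Amn passed only through the libraries named above. Members called here beyond Dab2 and Lama1 come from those genes, so the larger member counts are no support for a difference. The settings with a fragment filter or 1 FPKM per fragment, and a fit without S8 and T2, were chosen after seeing the data. With the fragment filter and pseudocount 0.1 the members called were 3 in 32 against R1, 4 in S8 against 16-6, 3 in S8 against 32, 5 in S8 against R1, 5 in T2 against 16-6 and 5 in T2 against R1, and the genes called, in the order 16-6, 32, S8 and T2 against R1, then 32, S8 and T2 against 16-6, S8 and T2 against 32, and T2 against S8, were 2130, 2818, 3676, 2633, 2339, 3694, 1996, 2795, 2149 and 922. With 1 FPKM per fragment for each gene (8039 genes, without Dab2) and pseudocount 0.1 the members called were 2 in 32 against R1, 2 in S8 against 32, 3 in T2 against 16-6 and 4 in T2 against R1. In these comparisons 1904, 1507, 1194 and 1739 of the 8039 genes were called. The same FPKM per fragment with pseudocount 1 tested only 7013 genes and 5 members, again without Dab2, so fewer calls were possible by construction. Its genes called were, in the order above, 577, 811, 1073, 831, 768, 1106, 595, 714, 496 and 172, and its members called were 0 in 32 against R1, 1 in S8 against R1, 1 in T2 against R1, 1 in 32 against 16-6, 1 in S8 against 16-6, 1 in T2 against 16-6 and 1 in T2 against 32. Leaving out 1 library gave 1 to 2 members in S8 against 32, with 2 only without the first 32 library. Same-numbered replicates did not deviate together (correlations -0.10, 0.001 and 0.03), and with the replicate number as a block, fitted on R1, 16-6 and 32, the members called were 0, 1 and 2 in 16-6 against R1, 32 against R1 and 32 against 16-6. Except where a cause is given, the cause was not tested. Depth limits all members but Dab2 and Lama1.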
